A study of Homo sapiens with 6 samples.

Results

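The genes described here are 5 metallothioneins (*MT1E*, *MT1F*, *MT1G*, *MT1X* and *MT2A*), the metal-sensing transcription factor *MTF1* and the zinc exporter *SLC30A1*. They were chosen by symbol as 7 of the 60609 genes in the files, and all 7 were among the 20725 genes with enough counts to be tested. Expression was measured by stranded, poly(A)-selected RNA sequencing in OCI-AML5, a human cell line derived from acute myeloid leukemia and grown with serum and GM-CSF. Both groups were OCI-AML5 cells sampled at 24 hours, with 3 libraries exposed to the solvent DMSO and 3 exposed to 1 μM S767, a cytotoxic compound whose mode of action the study set out to find. Cells were treated in triplicate, per the study's methods, and the libraries carry replicate numbers 1 to 3 in each group. What libraries of 1 number share is not stated, so the p-values measure only the spread between these libraries.

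Metallothioneins are small cysteine-rich proteins that bind zinc and copper and buffer the free metal in the cell. MTF1 is a zinc-finger protein that is activated when free zinc rises and binds metal response elements in the promoters of metallothionein genes and of *SLC30A1*. Excess copper or cadmium also raises metallothionein transcripts, and SLC30A1 (ZnT1) carries zinc out across the plasma membrane.

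The metallothioneins are paralogs that lie together on chromosome 16, and how alike they are decides how well short fragments can be told apart. In GENCODE 29 on GRCh38, *MT2A* (ENSG00000125148.7) spans chr16:56608199-56609497, *MT1E* (ENSG00000169715.15) chr16:56625475-56627112, *MT1F* (ENSG00000198417.7) chr16:56657694-56660698 and *MT1X* (ENSG00000187193.9) chr16:56682424-56684196, all on the plus strand. *MT1G* (ENSG00000125144.13) spans chr16:56666731-56668065 on the minus strand. Each gene has a coding sequence of 186 bases in 3 exons, with 61 codons before the stop, of which 20 encode cysteine. Transcripts were chosen to have this length, the longest found in every one of these genes, so the equal length follows from the choice. The coding sequences are shown from start to stop codon because they carry this likeness. They were read from GENCODE 29 transcripts, with capitals in *MT1E*, *MT1F*, *MT1G* and *MT1X* marking each base that differs from *MT2A*.
MT2A: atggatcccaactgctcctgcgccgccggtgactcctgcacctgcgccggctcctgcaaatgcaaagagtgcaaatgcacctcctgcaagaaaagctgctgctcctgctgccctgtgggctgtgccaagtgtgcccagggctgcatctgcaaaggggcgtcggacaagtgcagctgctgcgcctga
MT1E: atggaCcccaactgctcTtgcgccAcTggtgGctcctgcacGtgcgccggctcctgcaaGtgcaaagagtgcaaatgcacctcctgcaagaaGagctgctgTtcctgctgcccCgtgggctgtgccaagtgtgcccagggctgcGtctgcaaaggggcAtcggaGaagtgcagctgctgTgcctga
MT1F: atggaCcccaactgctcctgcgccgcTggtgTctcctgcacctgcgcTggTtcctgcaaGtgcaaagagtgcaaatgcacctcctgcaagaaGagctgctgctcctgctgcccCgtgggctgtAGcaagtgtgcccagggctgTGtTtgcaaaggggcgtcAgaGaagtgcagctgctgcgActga
MT1G: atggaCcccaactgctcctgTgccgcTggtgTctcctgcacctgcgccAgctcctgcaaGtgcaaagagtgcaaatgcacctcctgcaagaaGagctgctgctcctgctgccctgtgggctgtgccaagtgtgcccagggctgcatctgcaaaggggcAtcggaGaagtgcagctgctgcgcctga
MT1X: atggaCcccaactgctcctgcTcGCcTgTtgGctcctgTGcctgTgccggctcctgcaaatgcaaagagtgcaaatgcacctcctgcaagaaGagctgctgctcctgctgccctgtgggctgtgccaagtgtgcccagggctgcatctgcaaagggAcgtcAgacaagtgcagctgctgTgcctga
*MT1G* differs from *MT2A* at 9 bases, *MT1E* and *MT1X* at 14 each and *MT1F* at 16. Over all 10 pairs of these genes, identity ran from 88.7% between *MT1F* and *MT1X* to 95.2% between *MT1G* and *MT2A*.

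The other 2 genes, *MTF1* (ENSG00000188786.10, chr1:37809567-37859620) and *SLC30A1* (ENSG00000170385.10, chr1:211571568-211578742), lie on the minus strand of chromosome 1. Of the windows of 50 bases in the transcript used for each gene, 4.88% in *MT2A*, 5.34% in *MT1E*, 3.59% in *MT1F*, 20.2% in *MT1G* and 45.1% in *MT1X* also occurred in a transcript of another gene. The share was 0.644% in *MTF1* and 0 in *SLC30A1*. These shares depend on the transcript used, of 786 bases in *MT2A*, 704 in *MT1E*, 690 in *MT1F*, 406 in *MT1G* and 450 in *MT1X*. RSEM, described below, gave lengths of 402 to 403 bases for *MT2A*, 639 to 662 for *MT1E* and 445 to 472 for *MT1F*. For *MT1G* it gave 400.5 to 407 bases and for *MT1X* 410 to 415. Shares at those lengths were not computed, so the order of the shares may differ with other transcripts. At windows of 100 bases only *MT1X* still had shared windows, 19.1% of them, all with AC026461.1, a gene that GENCODE 29 places over it on the same strand. AC026461.1 was also among the genes that shared the *MT1X* windows of 50 bases, so that share is not likeness to paralogs alone.

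Each gene was measured in 2 ways, by the fragments that STAR counted on a single gene (here called unique counts) and by the expected counts and TPM values of RSEM, which divides fragments that match several places. Unique counts are given as CPM, scaled to library size by TMM, while TPM also takes transcript length into account, so only TPM was used to compare levels between genes. Total gene counts ran from 149994700 to 258029564 per library. Fragments that matched several places, 7.27 to 7.56% of all fragments, were left out of them. Of the 8 myeloid markers 7 were tested, with a summed level of 873 to 940 CPM in DMSO and 885 to 929 CPM in S767. The sum does not stand for each marker, as *ANPEP* had only 8 to 25 counts per library, 0.0309 to 0.105 CPM. *CSF2RA*, a subunit of the GM-CSF receptor, was listed at 0 in the unique counts and at 526 to 1069 in the RSEM counts. The 4 erythroid markers summed to at most 0.0673 CPM, with *HBA1* at 0 in every library, and the 4 epithelial and stromal markers to at most 0.246 CPM. The 4 lymphoid markers summed to 7.28 to 11.7 CPM in DMSO and 7.27 to 11.8 CPM in S767, nearly all of it *CD79A*, and *CD3E* was at 0. The part of these marker levels in the results below was not tested.

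Levels of the 5 metallothioneins were higher with S767, whereas *MTF1* and *SLC30A1* stayed close to their DMSO levels. In the fit without regard to replicate numbers, the quasi-likelihood test of edgeR, adjusted by Benjamini-Hochberg over all 20725 genes, 0 of the 7 genes passed an adjusted p of 0.05, and 0.00483% of all tested genes passed it with a higher level in S767. DESeq2 passed 1 of the 7, *MT2A*, against 0.106% of the 17912 genes to which it gave an adjusted p. At an unadjusted P under 0.05 the edgeR fit held *MT2A*, *MT1E* and *MT1G*, 3 of 7, against 3.53% of all genes in either direction. Libraries that share a replicate number deviated together, and in the same test with the replicate number as a block *MT2A*, *MT1E*, *MT1G* and *MT1F* rose, 4 of 7, against 2.16% of all genes called higher and 1.08% called lower. By the limits of the study, P under 0.05 and a log2 fold change over 0.4, *MT2A* and *MT1G* passed, 2 of 7, against 0.429% of all genes without the block, and the same 2 genes passed with it, against 0.685%. *MT2A* is one of the genes the study itself picked out from these libraries, so its direction here is not independent evidence. The median log2 fold change of the 5 metallothioneins was 0.31 and that of all genes tested was 0.00. In bulk RNA a higher level in each cell and a larger share of cells with a high level cannot be told apart.

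**Figure D1:**
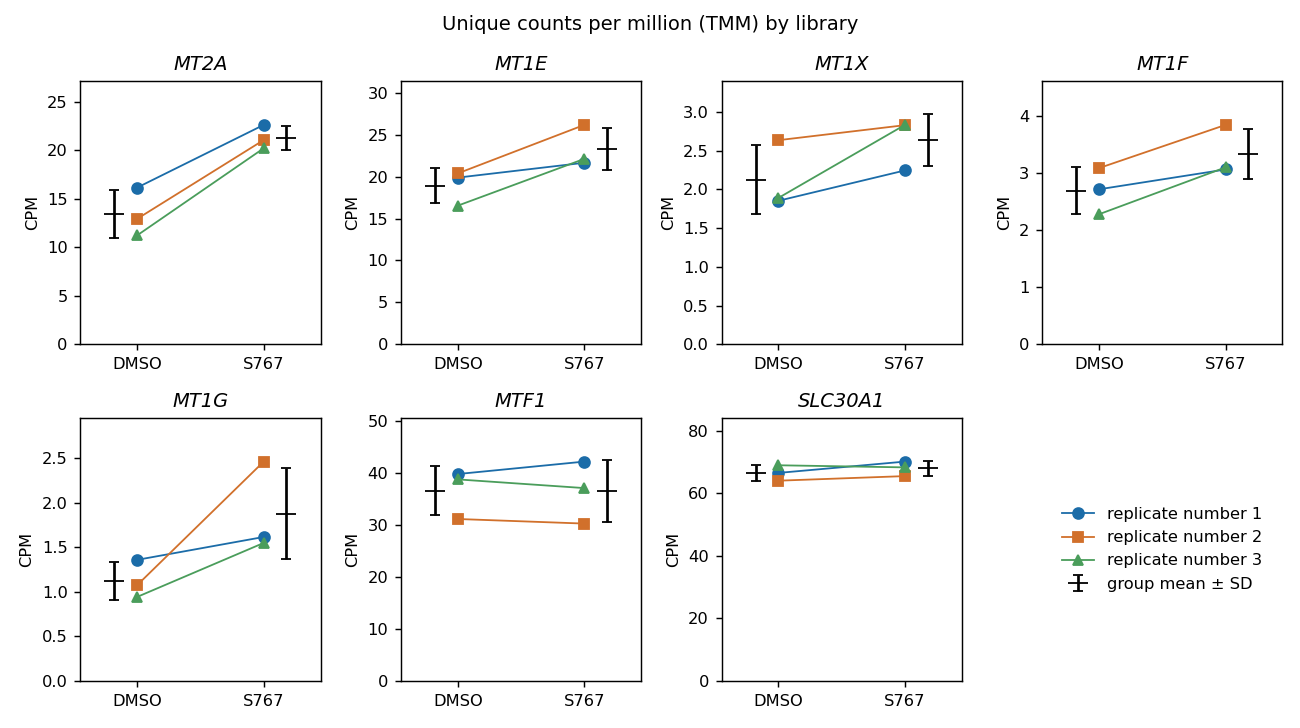
Level of each gene in each library in CPM (vertical axes, linear and starting at 0), with lines joining the DMSO and S767 libraries of the same replicate number and black marks for the group mean ± SD (n = 3). Every line slopes up in the 5 metallothioneins, and the share of all genes in which this holds was not computed. Every S767 library lies above every DMSO library in *MT2A*, *MT1E* and *MT1G*, as in 5.12% of all tested genes.

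*MT2A*, which encodes the metallothionein that most human cells express, had 16.1, 12.9 and 11.2 CPM in DMSO replicates 1, 2 and 3 and 22.6, 21.0 and 20.2 CPM in the S767 replicates of the same numbers. The lowest S767 library lay above the highest DMSO library. The group means were 13.4 ± 2.50 CPM (SD, n = 3) and 21.3 ± 1.22 CPM (SD, n = 3), a log2 fold change of 0.66 (SE 0.12) or 1.58-fold. This was the gene of rank 12 by P value among 20725, with an adjusted p of 0.837 by edgeR without the block. With the block the log2 fold change was 0.68 (SE 0.05), the rank was 4 and the adjusted p was 0.000114. The adjusted p with the block stayed under the limit with each pair left out in turn, at most 0.0218. Those fits rest on 2 pairs each and passed from 24 to 2034 genes, so their p-values are unstable. Within pairs of equal replicate number the log2 difference was 0.49, 0.70 and 0.85. The exact two-sided permutation test gave p = 0.1, the smallest value that 3 libraries against 3 allow.

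*MT1E* had the most unique counts of the family in DMSO, with 19.9, 20.4 and 16.5 CPM in the DMSO replicates against 21.7, 26.2 and 22.1 CPM in the S767 replicates. The groups did not overlap, but their nearest libraries were separated by less than the spread within either group. The log2 fold change was 0.30 (SE 0.10) with an adjusted p of 1.00 by edgeR without the block, and 0.30 (SE 0.05) with an adjusted p of 0.00656 by edgeR with it. Without the pair of replicate 2 the log2 fold change with the block was 0.27 and the edgeR adjusted p was 0.28.

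*MT1G*, the least abundant of the 5, had 1.36, 1.08 and 0.944 CPM in the DMSO replicates and 1.62, 2.46 and 1.55 CPM in the S767 replicates, from 160 to 441 fragments per library. The groups did not overlap, and S767 replicate 2 stood above the remaining S767 libraries. The log2 difference within pairs was 0.25, 1.19 and 0.71, so the size of the change was least certain in this gene. The log2 fold change was 0.73 (SE 0.21), with an adjusted p of 1.00 by edgeR without the block and 0.0213 with it. Without the pair of replicate 2, edgeR with the block gave a log2 fold change of 0.47 and an adjusted p of 0.364.

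*MT1F* had 2.71, 3.08 and 2.27 CPM in the DMSO replicates and 3.06, 3.84 and 3.09 CPM in the S767 replicates. DMSO replicate 2 lay just above S767 replicate 1, so the groups overlapped, although each S767 library was above the DMSO library of its number. The log2 fold change was 0.31 (SE 0.14), and the adjusted p by edgeR was 1.00 without the block and 0.0474 with it, close to the limit. With the block, leaving out the pair of replicate 2 gave an edgeR adjusted p of 0.423, and leaving out that of replicate 3 gave 0.181.

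*MT1X* had 1.85, 2.64 and 1.89 CPM in the DMSO replicates and 2.25, 2.83 and 2.83 CPM in the S767 replicates, and DMSO replicate 2 lay above S767 replicate 1. The log2 fold change of 0.31 (SE 0.17) did not pass in edgeR without the block (adjusted p = 1.00) or with it (adjusted p = 0.0904). With the block and the pair of replicate 1, 2 or 3 left out, it was 0.35, 0.43 and 0.19, with edgeR adjusted p of 0.0196, 0.287 and 0.465. Over the 7 genes, every S767 library lay above every DMSO library in 3, *MT2A*, *MT1E* and *MT1G*, which 5.12% of all tested genes also did.

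*MTF1*, the sensor, had 39.7, 31.1 and 38.7 CPM in the DMSO replicates and 42.1, 30.2 and 37.0 CPM in the S767 replicates. The groups overlapped over nearly their whole range, and the library of replicate 2 was the lowest in both. The group means were 36.5 ± 4.72 and 36.5 ± 5.97 CPM (SD, n = 3), with a log2 fold change of -0.0025 (SE 0.13) without the block and -0.0055 (SE 0.03) with it, whose sign turned when single libraries were left out. The adjusted p was 1.00 by edgeR without the block and 0.958 with it.

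*SLC30A1*, the exporter and a known MTF1 target, had 66.5, 64.1 and 69.0 CPM in the DMSO replicates and 70.2, 65.5 and 68.3 CPM in the S767 replicates. The highest and lowest libraries of the groups overlapped, and S767 replicate 3 lay below DMSO replicate 3. The log2 fold change was 0.03 (SE 0.04), with an adjusted p of 1.00 by edgeR without the block and 0.03 (SE 0.03) with an adjusted p of 0.606 with it. Within pairs the log2 difference was 0.08, 0.03 and -0.01, against 0.08, -0.04 and -0.06 for *MTF1*.

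**Figure D2:**
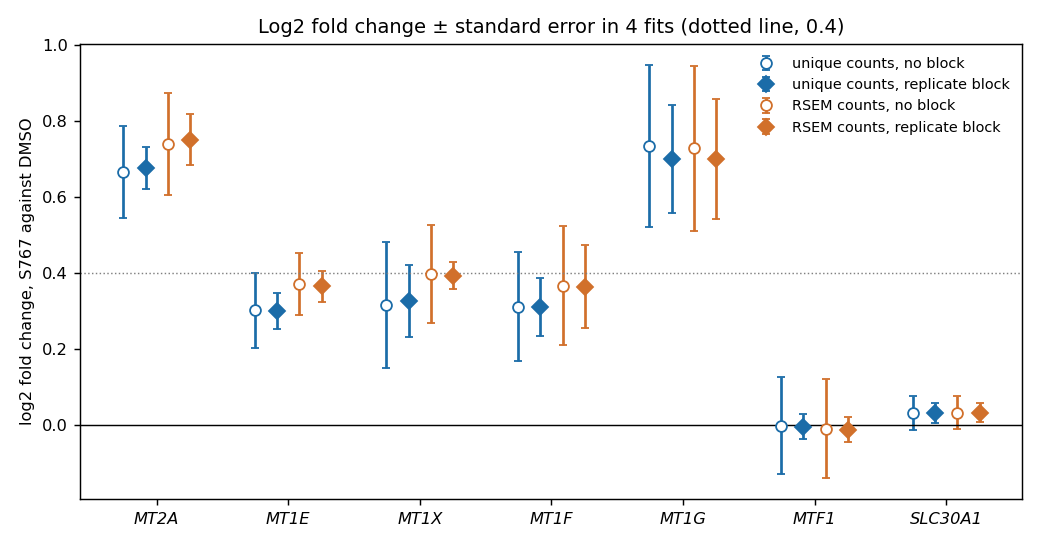
Log2 fold change of S767 against DMSO (vertical axis) with its standard error for the 7 genes in 4 fits, from unique counts (blue) or RSEM counts (orange), without (open circles) or with (filled diamonds) the replicate block. The 5 metallothioneins lie between 0.30 and 0.75 in every fit shown, and *MTF1* and *SLC30A1* lie near 0.

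Within each library, the ratio of *MT2A* to another gene does not depend on depth or scaling. The log2 ratio of *MT2A* to *SLC30A1* unique counts was -2.04, -2.31 and -2.62 in the DMSO replicates and -1.63, -1.64 and -1.76 in the S767 replicates, a difference of 0.65 without overlap (exact permutation test, two-sided p = 0.1). That of *MT2A* to *MTF1* differed by 0.69 (exact permutation p = 0.1), also without overlap. Against the other metallothioneins the differences were 0.38 for *MT1E*, 0.37 for *MT1F*, 0.36 for *MT1X* and -0.04 for *MT1G*, and the exact permutation p was 0.2, 0.2, 0.3 and 1. These are 6 ratios with raw p-values, and the smallest p this test allows is 0.1, without use of the pairing. Within pairs of replicates 1, 2 and 3 the log2 ratio was higher with S767 by 0.36, 0.34 and 0.43 for *MT1E*, by 0.31, 0.39 and 0.40 for *MT1F* and by 0.21, 0.60 and 0.26 for *MT1X*, whereas for *MT1G* the differences were 0.24, -0.49 and 0.13. *MT2A* thus gained on *MT1E*, *MT1F* and *MT1X* in 3 of 3 pairs, a number of pairs at which no exact two-sided paired test can go below 0.25.

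Because the metallothioneins share fragments, each gene's RSEM expected count was set against its unique count in the same library. For *MT2A* the ratio of RSEM to unique counts was 0.956 to 1.12, for *MT1E* 0.949 to 1.05 and for *MT1G* 0.932 to 0.980. *MT1F* received fewer fragments from RSEM, 0.749 to 0.864 per unique count. The 2 genes outside the family gave 0.954 to 0.964 for *MTF1* and 0.965 to 0.976 for *SLC30A1*. *MT1X* stood apart, with 5.18 to 7.11 RSEM fragments for every unique one.

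**Figure D3:**
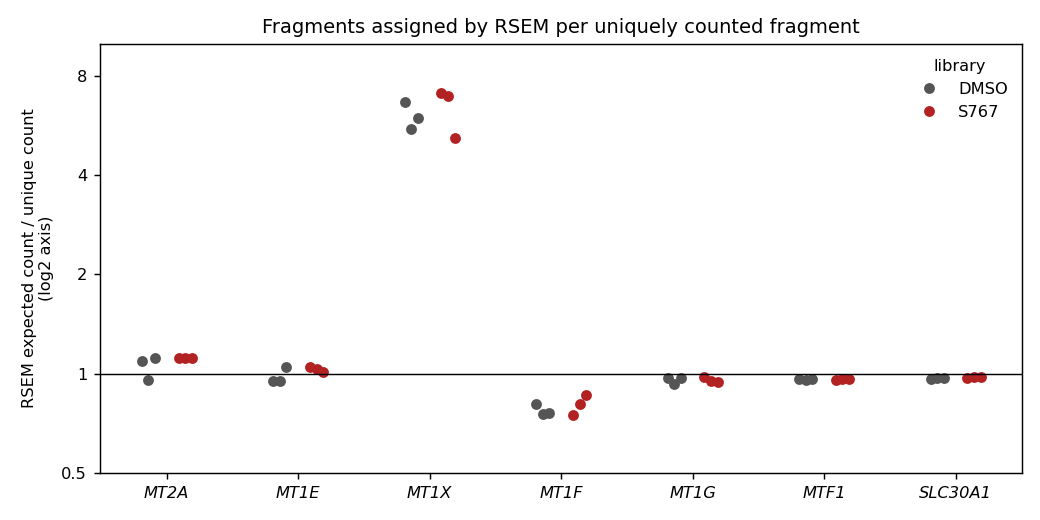
Ratio of the RSEM expected count to the unique count (vertical axis, log2 scale) in each of the 3 DMSO (grey) and 3 S767 (red) libraries. The ratio lies between 0.749 and 1.12 in 6 genes and between 5.18 and 7.11 in *MT1X*.

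For *MT1X* the unique counts were 405, 392 and 489 in the DMSO replicates and 535, 507 and 558 in the S767 replicates, while RSEM gave 2692, 2168 and 2907 and then 3804, 3519 and 2890. The standard deviation that RSEM attached to these estimates was at most 1.88 fragments, and it was 0 for *MT1E*, *MT1F*, *MTF1* and *SLC30A1*. The *MT1X* transcript has 450 bases in 3 exons, and AC026461.1 (ENSG00000259827.1) covers 99 of the 145 bases of exon 1, at chr16:56682424-56682568, and all 66 bases of exon 2, at chr16:56683165-56683230, but none of the 239 bases of exon 3, at chr16:56683958-56684196. This is 36.7% of the transcript, and the transcripts used for the other 6 genes shared no base with a same-strand exon of another gene. AC026461.1 was listed at 0 in every library by both methods. STAR leaves a fragment that touches exons of both genes out of either count, and the part of this overlap in the low unique count of *MT1X* was not tested.

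**Figure D4:**
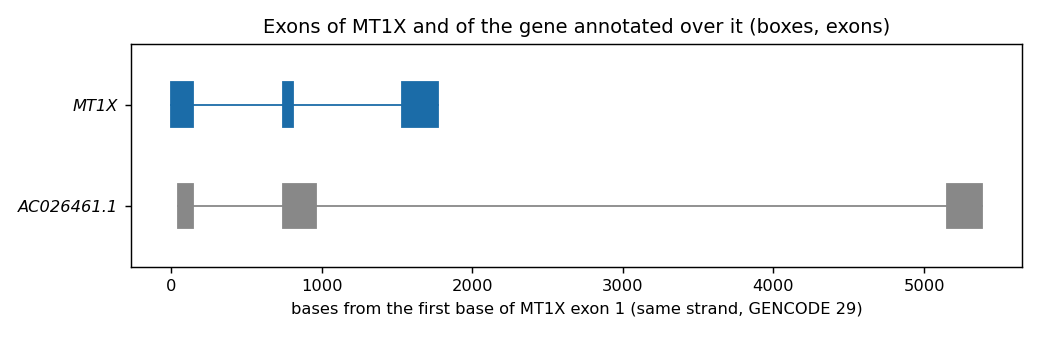
Exons (boxes) of *MT1X* and of AC026461.1, drawn to scale by their distance in bases from the first base of *MT1X* exon 1 on the shared strand. Exon 2 of *MT1X* and most of exon 1 lie under AC026461.1 exons, and exon 3 does not.

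The choice of counts moved single calls of the family. From RSEM counts with the block, *MT2A*, *MT1E* and *MT1X* rose, 3 of 7, against 1.41% of all genes called higher in that fit. *MT1X* changed most in its test, with a log2 fold change of 0.39 (SE 0.03) and an adjusted p of 0.0019 by edgeR with the block, where its unique counts had given 0.0904. *MT1F* went the other way, to an adjusted p of 0.12 at a log2 fold change of 0.36 (SE 0.11), and *MT1G* to 0.0566 at 0.70 (SE 0.16). *MT2A* had a log2 fold change of 0.75 (SE 0.07) and *MT1E* of 0.36 (SE 0.04), with adjusted p of 0.0019 and 0.0043. *MTF1* and *SLC30A1* gave 0.884 and 0.582 by the same edgeR fit. Without the block none of the 7 passed with RSEM counts, the lowest adjusted p being 0.924 for *MT2A*, and 5 had a P under 0.05 unadjusted, against 3.7% of all genes in that fit in either direction.

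On the TPM scale, which is comparable between genes, *MT2A* was the most abundant in DMSO at 125, 83.4 and 88.0 TPM, followed by *MT1X* at 83.8, 92.5 and 76.2 TPM. These 2 genes overlapped in DMSO. *MT1E* came next at 56.6, 56.6 and 52.9 TPM and lay below both without overlap. *SLC30A1* followed at 14.8, 14.1 and 15.5 TPM, above *MT1F* at 11.4, 12.0 and 8.92 TPM. *MT1F* overlapped with *MT1G*, at 9.15, 6.83 and 6.30 TPM, and *MT1G* with *MTF1*, at 6.47, 4.97 and 6.55 TPM. A place as second for *MT1X* rests on the RSEM counts, which exceed its unique counts several times.

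With S767 the order of the mean levels was the same, but the gaps differed. *MT2A* stood at 181, 156 and 157 TPM, *MT1X* at 110, 125 and 97.0 TPM and *MT1E* at 68.1, 78.6 and 68.3 TPM, and none of these 3 overlapped with another. *SLC30A1* at 15.9, 14.1 and 15.0 TPM now overlapped with *MT1F* at 13.0, 16.9 and 13.9 TPM, which overlapped with *MT1G* at 11.3, 15.4 and 10.0 TPM. *MTF1* was the lowest at 6.91, 4.91 and 5.89 TPM. On this scale the S767 libraries lay above all DMSO libraries in each of the 5 metallothioneins, 5 of 7 genes, against 3.31% of the same 20725 genes.

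The unique counts of the 5 metallothioneins together stood at 41.9, 40.1 and 32.9 CPM in the DMSO replicates and 51.2, 56.3 and 49.8 CPM in the S767 replicates. The groups did not overlap, and the log2 ratio of the group means was 0.45. From TPM the sums were 286, 251 and 232 against 384, 391 and 347, a log2 ratio of 0.54. *MT2A* made up 38.3 ± 5.32% of the summed TPM in DMSO and 44.2 ± 3.86% in S767 (SD, n = 3), groups that overlapped, and *MT1X* and *MT1E* made up most of the rest. *MT1X* made up 33.0 ± 3.77% of the summed TPM in DMSO and 29.5 ± 2.04% in S767. Of the summed unique counts it made up only 5.58 ± 1.09% and 5.04 ± 0.652% (SD, n = 3), so the CPM sum holds little of this gene.

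The other 7 metallothionein genes in the list, *MT1A*, *MT1B*, *MT1H*, *MT1M*, *MT1HL1*, *MT3* and *MT4*, were listed at 0 in all 6 libraries in both the unique and the RSEM counts. A count of 0 allows up to 3 counts, or 0.0116 to 0.0202 CPM depending on the library, for counting error only. *MT1B* shares 31.6% of its exon bases with another gene on its strand and the other 6 share none. Of 9 metallothionein pseudogenes, *MT1XP1* alone was tested. It had 8 to 19 unique counts per library and a log2 fold change of -0.05 (SE 0.35), while the other 8 had at most 8 in any library. RSEM gave *MT1XP1* only 0 to 2 counts per library and the other 8 at most 1.

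Metal response elements, the DNA elements MTF1 binds, share the core TGCACNC or TGCGCNC. Both spellings were searched on both strands of the 250 bases before the RefSeq start (GRCh38.p14), which was given for 4 of the 7 genes. *MT2A* had 7 matches and *MT1X* had 4, *SLC30A1* had 1 and *MTF1* had 0. Of 35116 promoters of the same length, 24.8% held at least 1 match, 0.37% at least 4 and 0.0313% at least 7. The matches are shown because they are the letters counted in these promoters. Each is written along the gene's strand with up to 10 bases of context and the match in capitals, which reads as the reverse complement where the core lies on the other strand.
MT2A, 246 bases before the start: ccgcTGCACCCagccccttcc
MT2A, 168 bases before the start: cccgcggcccGTGTGCAgagccgggtg
MT2A, 153 bases before the start: cagagccgggTGCGCCCggcccagtgc
MT2A, 139 bases before the start: cccggcccagTGCGCGCggccgggtgt
MT2A, 88 bases before the start: agcgcggggcGTGTGCAggcagcgccc
MT2A, 54 bases before the start: gcggggctttTGCACTCgtcccggctc
MT2A, 8 bases before the start: cttgccgcgcTGCACTCc
MT1X, 150 bases before the start: ggccccgcggTGCGCCCggcgctgggc
MT1X, 122 bases before the start: cacgggttgcTGCACCCggcccaggat
MT1X, 78 bases before the start: cagcaggggcGGGTGCAaggacgaggc
MT1X, 53 bases before the start: gcggggcctcTGCGCCCggccctcttc
SLC30A1, 49 bases before the start: cgggggttccGAGTGCAaagcaaagtt
The searched windows were chr16:56608334-56608583 for *MT2A*, chr16:56682220-56682469 for *MT1X*, chr1:211579162-211579411 for *SLC30A1* and chr1:37859593-37859842 for *MTF1*. The windows lie at unlike places relative to the GENCODE 29 transcripts used above. That of *MT2A* falls wholly inside exon 1 of its transcript, which starts 385 bases before the RefSeq start. That transcript has 786 bases, whereas RSEM gave *MT2A* a length of 402 to 403 bases in the 6 libraries. Which start the cells used was not tested. The last 46 bases of the *MT1X* window and the last 28 of the *MTF1* window lie in exon 1 of their transcripts. The RefSeq start of *SLC30A1* lies 419 bases before that of its GENCODE transcript, so its window holds no base of that transcript. RSEM gave *SLC30A1* a length of 5893 bases in every library, against 5474 in that transcript. A match is a description of these letters, not a site shown to be bound.

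Among 5 other genes known to be regulated by MTF1, *SLC40A1*, which encodes the iron exporter ferroportin, rose with the block. *SLC39A10*, a zinc importer that MTF1 represses, fell. This is 1 gene of 5 in each direction, against 2.16% of all tested genes called higher and 1.08% called lower. *SLC40A1* had 3.88, 5.33 and 4.86 CPM in the DMSO replicates and 5.16, 7.24 and 7.02 CPM in the S767 replicates, a log2 fold change of 0.46 (SE 0.06) with an adjusted p of 0.00146 by edgeR with the block, although S767 replicate 1 lay below DMSO replicate 2. *SLC39A10* fell from 64.0, 67.0 and 66.5 CPM to 61.4, 59.0 and 61.0 CPM without overlap, by 0.12 on the log2 scale (SE 0.03, adjusted p = 0.0342 by edgeR with the block). The share of all genes that fell without overlap was not computed. *PGF*, a placental growth factor, had 18 to 43 counts per library and a log2 fold change of 0.82 (SE 0.26), with an adjusted p of 0.12 in that fit. *GCLC* (-0.01) and *SELENOW* (0.07) had smaller log2 fold changes and did not pass. The median of the 5 was 0.07 with the block.

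Of the other zinc exporters and vesicle loaders, 5 of 10 were tested and 0 passed with the block in edgeR, where 1, *SLC30A9*, had an unadjusted P under 0.05. The log2 fold changes without the block ran from -0.01 to 0.07 with a median of 0.06, and *SLC30A9* stood at 0.06 (SE 0.02) with the block (adjusted p = 0.23). None of the 7 MTF1 partners and zinc-responsive factors passed in edgeR with the block. *SP1*, a factor that binds GC-rich promoters, was the single one of these at an unadjusted P under 0.05, with a log2 fold change of -0.05 (SE 0.03), and the median of the 7 was 0.00.

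Stress genes that respond to metals through other factors went in both directions. Of 11 tested, *NQO1* and *TXNRD1* rose and *GCLM*, *SLC7A11* and *BAG3* fell in edgeR with the block, and the median was -0.04. Over all tested genes that fit called 2.16% higher and 1.08% lower. *NQO1*, a quinone reductase under NRF2, had a log2 fold change of 0.46 (SE 0.04, adjusted p = 0.000298) and *TXNRD1*, thioredoxin reductase, of 0.11 (SE 0.02, adjusted p = 0.0252). *GCLM*, the modifier subunit of glutamate-cysteine ligase, was at 51.4, 41.6 and 35.6 CPM in DMSO and 37.5, 31.3 and 26.7 CPM in S767, a log2 fold change of -0.43 (SE 0.03, adjusted p = 1.01e-05). *SLC7A11*, the cystine importer, was at -0.44 (SE 0.06, adjusted p = 0.00349). The co-chaperone *BAG3* was at -0.11 (SE 0.03, adjusted p = 0.0417), and *HSPH1* at -0.08 (SE 0.02) did not pass (adjusted p = 0.0777). *HMOX1*, which encodes heme oxygenase 1 and is induced by many metals, had a log2 fold change of -0.02 (SE 0.10). Of the myeloid markers, *CD33* rose by 0.11 (SE 0.02, adjusted p = 0.0241), and *MPO* at -0.07 and *CEBPA* at -0.07 had adjusted p of 0.234 and 0.121 in the same edgeR fit with the block.

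Across the 6 libraries, the log2 CPM of the other members followed *MT2A* with a Pearson correlation of 0.87 for *MT1G*, 0.82 for *MT1E*, 0.71 for *MT1F*, 0.47 for *MT1X*, 0.26 for *SLC30A1* and 0.09 for *MTF1*. These are descriptions over 6 libraries that share the treatment and the replicate numbers. Of 11666 genes outside the family with a mean log2 CPM of at least 1, the closest to *MT2A* were *DPY30* (0.993), *CROT* (0.991), *GGH* (0.989), *APOL4* (0.985) and *TMCO3* (0.985). Their log2 fold changes were 0.06 to 0.22, well below that of *MT2A*.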

How the data were processed

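RNA of 3 DMSO and 3 S767 libraries was sequenced as stranded poly(A) libraries. Per the labels, the authors aligned reads to GRCh38 with STAR 2.7.1a and ran RSEM 1.2.28, while their methods name another RSEM release, and the annotation release is not given in the sources used here. The authors deposited whole-number counts per gene without normalization, and forward-strand counts were 6.44 to 6.58%, so the reverse-strand column was used. They also deposited RSEM expected counts, TPM, the posterior standard deviation of each count (a score of uncertainty) and other length columns. Lines that name no gene stayed out. Together they held 19.7 to 20.7% of fragments, those that matched several places included.

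Counts were scaled by TMM, filtered with filterByExpr (minimum count 10) and compared by edgeR 4.0.16 (quasi-likelihood, R 4.3.3), with Benjamini-Hochberg adjustment over 20725 genes. RSEM counts were rounded. Standard errors are the log2 fold change over the root of F. At these depths, spread between libraries limits the comparisons, and intervals for counts of 0 cover counting error only. Log2 CPM used a prior count of 2. Alternatives were limma-voom (limma 3.58.1), DESeq2 1.42.0, other scalings and filters, log2(TPM + 1) and log2(TPM + 0.1), unstranded counts, single libraries left out, and the replicate block.

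For libraries of the same number, deviations from the group mean correlated by 0.779, 0.872 and 0.754 (6191 genes, mean log2 CPM over 5), against negative values in all other pairs. Deviations from a group mean cancel within the group, so the negative values follow in part from the positive ones. On the positive values the numbers were taken to pair the libraries. This comes from the values, since the labels do not say what a number shares.

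Members and gene lists were chosen with earlier results of these data known. Named genes are the 7 members, genes of the other lists with P under 0.05 with or without the block, and the 5 genes most correlated with *MT2A*. *GCLC*, *SELENOW*, *HMOX1*, *ANPEP*, *CSF2RA*, *HBA1*, *CD79A*, *CD3E* and the metallothionein genes and pseudogenes outside the 7 fall outside this rule and were named after their values were seen. Positions are from GENCODE 29, in which 58502 of 60609 identifiers occur.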

Additional observations from a re-analysis of the deposited data

Results flagged for a closer look

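Forward-strand counts of *MT1E*, which the comparisons did not use, were higher in every S767 library than in any DMSO library once scaled to CPM, at a mean of 0.044 CPM with S767. The unscaled values overlapped, at 6, 4 and 8 counts in the DMSO replicates and 10, 7 and 10 in the S767 replicates, against 3030 to 5157 on the gene's own strand. They were at most 0.229% of the counts on both strands. The share of all genes whose forward-strand counts do the same was not computed, so this is a description of few counts only.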

How the results depend on the processing

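The 5 metallothioneins had a log2 fold change above 0 in all 23 settings, the main one included, and *SLC30A1* too. In all, 0 of the 7 genes passed an adjusted p of 0.05 in the main fit, whereas 1 passed with DESeq2 and 1 with no filter on low counts, 4 with the replicate block, 3 with the block and RSEM counts, 3 with the block and limma-voom, and 5, 1 and 3 with the block when the pair of replicate 1, 2 or 3 was left out, fits that rest on 2 pairs. Leaving out single libraries without the block gave 0 for each. By P and fold limits 2 genes passed, and 2 to 4 when 1 library was left out, with 4 (*MT1F* and *MT1X* added) without DMSO replicate 2. Over all genes 1 passed in the main fit, 25 with DESeq2, 9 with no filter on low counts, 0 with log2(TPM + 1) and 0 with log2(TPM + 0.1), 1 to 2 without single libraries (2 without DMSO replicate 1), 670 with the block, 394 with the block and RSEM counts, 609 with the block and limma-voom, and 2034, 24 and 636 with the block without the pair of replicate 1, 2 or 3.

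Log2 fold changes of *MT2A* past the adjusted limit were 0.66 with DESeq2, 0.67 with no filter, 0.68 with the block, 0.75 with the block and RSEM counts, 0.67 with the block and limma-voom, and 0.78, 0.66 and 0.59 with the block without pair 1, 2 or 3. Those of *MT1E* were 0.30 with the block, 0.36 with RSEM added, 0.30 with limma-voom added, and 0.39 and 0.24 without pair 1 or 3. Those of *MT1G* were 0.70 with the block, 0.68 with limma-voom added, and 0.95 and 0.69 without pair 1 or 3. *MT1F* passed with the block at 0.31 and without pair 1 at 0.38, and *MT1X* with the block and RSEM at 0.39 and without pair 1 at 0.35. The cause of these changes was not tested. *MTF1* changed sign, to 0.0086 and 0.0226 with the block without pair 2 or 3, and ran from -0.12 to 0.12 without single libraries. The summed metallothioneins, with a log2 ratio of 0.45, had 12 alternatives (scaling, RSEM, TPM, strand and single libraries left out), from 0.35 to 0.54, all within the SD of 0.148 between replicates. Depth limits the pseudogenes, whose few counts also differ between unique and RSEM counts.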
